A study of Homo sapiens with 16 samples.

Results

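The comparison described here is that of HAP1 cells given the RNA polymerase III (Pol III) inhibitor ML-60218 at 20 µM for 1 h with untreated HAP1 cells, and its members are 4 of the 16 libraries of the study, 2 in each group, taken by their labels. HAP1 is an established human cell line with a nearly haploid genome that goes back to the leukaemia line KBM-7. The study measured newly made RNA by TT-chem-seq, in which cells take up 4-thiouridine (4-SU, 1 mM for the last 30 min here), the RNA is broken into short pieces and the labelled pieces are biotinylated, pulled down and sequenced. The other 6 of its 8 groups were cells with no 4-SU and labelled cells given BMH-21 at 1 µM or DRB at 100 µM for 1 h or 5 h, or ML-60218 at 20 µM for 5 h. The labels name no vehicle for the untreated cells, and ML-60218 was used at 1 dose. Each pair of libraries is labelled as biological replicates, with no separate cultures named, so p-values measure only the spread between these libraries.

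Pol III makes tRNAs, 5S rRNA and a few other short RNAs. TFIIIC and TFIIIB bring it to promoters that lie, for tRNA and 5S genes, largely inside the gene. Precursor tRNAs are trimmed at both ends, spliced where they carry an intron and chemically modified, and these precursors are short-lived, while mature tRNA is stable. ML-60218 was described as a cell-permeable small molecule that inhibits Pol III of yeast and human cells.

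Sequencing gave about 46098600 and 67324500 tags in the untreated libraries and 23734100 and 26190300 in the ML-60218 1 h libraries, and tags in the mRNA table came to between 2.03% and 2.49% of these. Values are tags per 10000000 tags of the library (written 10M), as deposited. "Relative to mRNA" means that each value was divided by the library's mRNA-table sum times a TMM factor, and changes are differences of log2 values on that scale unless the spike-in scale is named. On the spike-in scale, set by yeast RNA added to each sample, each treated library is given as a percentage of its like-numbered untreated library, the form in which the study's ratios are built. A result passed the test when its Benjamini-Hochberg adjusted p over all rows tested was under 0.05. Of 19 blood lineage genes, 8 were in the mRNA table and 3 were tested. SPI1 and GATA1 were below 2 tags per 10M, and RUNX1 stood at 107.8 and 113.9 in untreated cells and 124.9 and 90.5 at 1 h.

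Neither 5S rRNA nor summed tRNA was lower after 1 h of ML-60218. 5S rRNA measured 77.3 and 139.0 tags per 10M in untreated cells and 227.9 and 186.5 at 1 h. Both treated libraries lay above both untreated ones, and the untreated ones differed from each other by more than the treated ones did. The change relative to mRNA was 1.09 (SE 0.33, with 0.37 to 1.81 as its 95% interval, n = 2 in each group), which did not pass (adjusted p = 0.177 by limma, 0.265 by edgeR). On the spike-in scale 5S rRNA was at 292.8% and 172.3% of the untreated level, a mean of 232.5% ± 85.2 (SD, n = 2), with an adjusted p of 0.0926 in the limma fit that pairs libraries by number. In such bulk samples, fewer cells making an RNA and less of it per cell cannot be told apart. These values rest on 356.5 and 935.5 recovered tags in untreated cells and on 541 and 488.5 at 1 h. Cells with no 4-SU had 62.9 and 45.2 tags per 10M of 5S rRNA, 6.33% ± 1.29 of the untreated level once scaled by the spike-in (SD, n = 2).

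tRNA as a class summed to 1743 and 2371 tags per 10M in untreated cells and to 2630 and 2464 at 1 h. The treated libraries were again the higher ones, and the gap between the untreated libraries was wider than that between the second of each group. Relative to mRNA the class was at 0.43 (SE 0.22, limma adjusted p = 0.410), with a 95% interval from -0.04 to 0.89. In the spike-in fit the class averaged 141.6% ± 11.7 of untreated cells (SD, n = 2), a change of 0.50 (SE 0.18, adjusted p = 0.194), and the lower end of its 95% interval lay at 109.3% of the untreated level. Background without 4-SU was 0.352% ± 0.00344 (SD, n = 2). The class sum includes nm-tRNA-Tyr-GTA-chr1-142, a nuclear gene that resembles a mitochondrial one and held 13.5% of the mean untreated tRNA level.

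A single gene carried much of the tRNA signal. tRNA-Tyr-GTA-2-1 (chromosome 2, 27050781 to 27050870, GRCh38, within the RefSeq span of the carboxypeptidase gene AGBL5) held 41.2% and 30.4% of all tRNA tags in untreated cells and 23.4% and 21.9% at 1 h. Its level was 717.5 and 719.6 tags per 10M in untreated cells and 616.4 and 540.1 at 1 h, with a change relative to mRNA of -0.21 (SE 0.20, adjusted p = 0.701). With this gene left out of the sum, a choice made after its values were seen, the class was at 0.70 relative to mRNA (SE 0.25, adjusted p = 0.232) and stood at 195.1% and 149.5% of untreated cells with the spike-in (adjusted p = 0.0926).

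**Figure D1:**
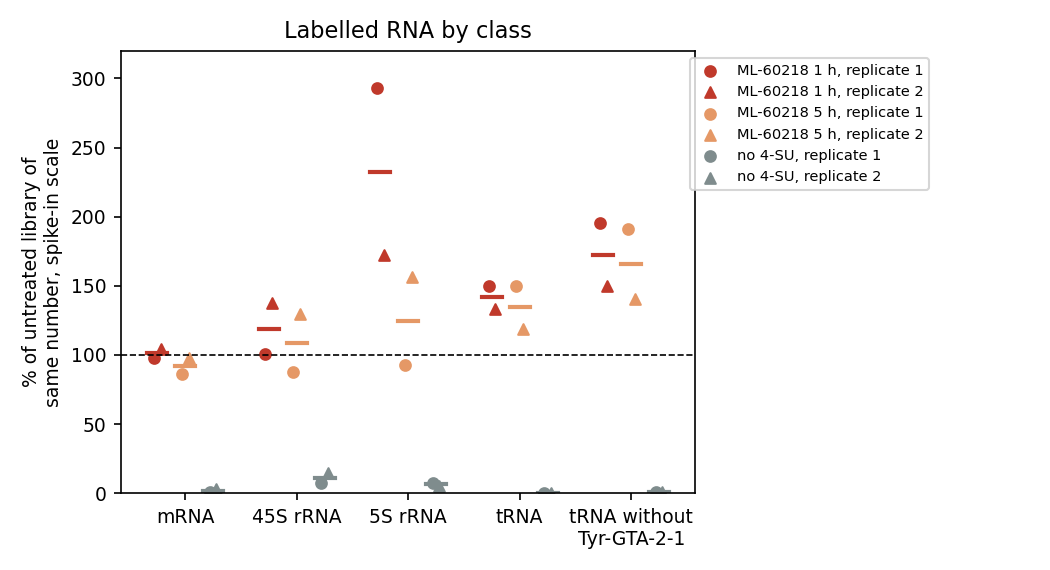
Level of each RNA class on the spike-in scale, as a percentage of the like-numbered untreated library (y axis, dashed line at 100%), for ML-60218 at 1 h and 5 h and for cells with no 4-SU. Points are libraries and bars are means of 2. The 1 h points of 5S rRNA (292.8% and 172.3%) and of tRNA (149.9% and 133.3%) lie above the dashed line, while those of mRNA (97.7% and 104.5%) lie beside it.

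Among single tRNA genes, 65 of 631 had enough tags for the test, and 292 had none in any of the 4 libraries. Treated libraries alone could meet the filter, so genes low in untreated cells could enter the 65. tRNA-Val-AAC-1-5 was tested with 2.5 and 3 tags in untreated cells and 5 and 5 at 1 h. Counts and medians over tested tRNA genes, here and below, are not free of this selection. None of the 65 passed the test relative to mRNA in limma (0% called) or edgeR (0%), and DESeq2 called 1 higher (1.54%). Without adjustment, 27 were at p under 0.05 in limma, all of them higher (41.5%, against 3.74% of mRNA genes higher and 9.37% lower), and in edgeR 17 were (26.2%, against 3.16% of mRNA genes higher). Relative to mRNA, both treated libraries exceeded both untreated libraries in 43 of the 65 (66.2%), and the reverse held in 4 (6.15%), against 15% and 22.9% of mRNA genes. The median change was 0.72, with the middle quartiles from 0.24 to 1.03, beside a median of -0.05 over 4866 mRNA genes. Among the 24 tRNA genes with a mean of at least 50 tags over the 4 libraries, the median was 0.92 and 21 had a positive change. That mean counts the treated libraries too. In the spike-in fit with libraries paired by number, 7 tRNA genes rose (10.8%) and none fell, against 0.349% of mRNA genes higher. Without the pairing 1 tRNA gene passed on that scale.

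tRNA-Leu-TAG-3-1 (chromosome 16, 22195710 to 22195792), which decodes leucine, had the largest change. It measured 2.17 and 5.05 tags per 10M in untreated cells, 15.4 and 12.4 at 1 h and 17.7 and 15.5 at 5 h. Its change at 1 h was 2.0 relative to mRNA (SE 0.36, adjusted p = 0.0605), and it passed on the spike-in scale (2.06, adjusted p = 0.00717). tRNA-Glu-CTC-1-3 (chromosome 1, 161454607 to 161454679), a glutamate tRNA gene, went from 55.4 and 106.1 to 156.1 and 138.0 tags per 10M, 1.11 on the spike-in scale (adjusted p = 0.0137). tRNA-Asp-GTC-2-1, for aspartate, lies nearby on chromosome 1 (161440824 to 161440896) and measured 11.4 and 21.3 untreated against 36.02 and 35.1 (1.34, adjusted p = 0.0351). In these 3 genes every treated library was above every untreated one, as in 66.2% of tested tRNA genes. The untreated libraries differed from each other by a factor that was larger than that between the treated ones.

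The other 4 tRNA genes that passed on the spike-in scale were tRNA-Tyr-GTA-5-2, tRNA-Tyr-GTA-5-1, tRNA-Tyr-GTA-1-1 and tRNA-Leu-CAA-3-1. tRNA-Tyr-GTA-5-1 (chromosome 8, 66113366 to 66113459) is the most abundant of them, at 60.5 and 127.5 tags per 10M in untreated cells, 241.0 and 184.4 at 1 h and 241.5 and 275.8 at 5 h. Its change on the spike-in scale was 1.43 (SE 0.33, adjusted p = 0.0493). The gene lies within the RefSeq span of TRIM55, and tags were assigned without regard to strand, so tags of a host gene and of a tRNA gene inside it cannot be told apart.

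Higher tRNA genes lay both inside and outside other genes. Of the 47 tested tRNA genes outside other RefSeq genes, 44 had a positive change, with a median of 0.74, and of the 18 inside or overlapping one, 11 did, with a median of 0.59. No test was made of that difference. The anticodon families in which human genes carry introns, Tyr-GTA, Ile-TAT, Arg-TCT and Leu-CAA, had a median of 0.74 over 25 tested genes. It was 0.67 over 40 tested genes of all other families. Families were set by anticodon, and single members were not checked for an intron. The Tyr-GTA genes counted include nm-tRNA-Tyr-GTA-chr1-142 and nm-tRNA-Tyr-GTA-chr21-2, nuclear genes that resemble mitochondrial ones. Without these, the median over the 63 other tested tRNA genes was 0.74.

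The intron-bearing families had different summed levels, whose differences were not tested. Leu-CAA, for leucine, summed to 206.8 and 312.4 tags per 10M in untreated cells and to 474.8 and 498.1 at 1 h, or 228.1% and 204.6% of untreated cells with the spike-in. Ile-TAT, for isoleucine, was at 210.8% and 159.3%, and Arg-TCT, for arginine, at 209.3% and 174.3%. Tyr-GTA summed to 1129 and 1397 untreated and to 1237 and 1178 at 1 h, 108.8% and 108.2% of the untreated level. Most of the untreated sum was tRNA-Tyr-GTA-2-1 (717.5 and 719.6) and nm-tRNA-Tyr-GTA-chr1-142 (187.1 and 366.8). With the spike-in the former was at 85.4% and 96.3% of untreated cells at 1 h and the latter at 86.8% and 95.4%. The sum therefore says little about the other Tyr-GTA genes. Within Tyr-GTA the median of 14 tested genes was 0.17, with a range from -0.40 to 1.53: the 2 genes on chromosome 8 were at 1.08 and 1.36, and the 5 on chromosome 14 lay between -0.10 and 0.28. Outside Tyr-GTA, 47 of 51 tested genes had a positive change, with a median of 0.83.

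Grouped by amino acid, the summed level with the spike-in was above 100% in both 1 h libraries for every amino acid with a tested tRNA gene. Leucine tRNAs stood at 223.7% and 203.0%, aspartate tRNAs at 269.9% and 199.9%, glutamate tRNAs at 276.9% and 168.0%, and histidine tRNAs at 256.0% and 133.9%. Lysine tRNAs (116.5% and 200.6%) were carried by tRNA-Lys-CTT-10-1, which had 45.5 and 43.5 tags per 10M untreated and 55.2 and 69.7 at 1 h. With no 4-SU it had 39.8 and 29.9 tags per 10M, which came to 7.79% and 11.4% of the untreated level once scaled by the spike-in. The selenocysteine tRNA gene tRNA-SeC-TCA-1-1 (chromosome 19, 45478590 to 45478687), whose promoter lies outside the gene unlike those of other tRNA genes, measured 16.1 and 24.8 untreated, 35.6 and 23.5 at 1 h and 25.4 and 15.5 at 5 h. Its change relative to mRNA was 0.63 (SE 0.24, adjusted p = 0.275).

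Of the 10 tRNA genes with most tags in untreated cells, tRNA-Tyr-GTA-2-1, tRNA-Tyr-GTA-5-1 and tRNA-Glu-CTC-1-3 are given above. tRNA-His-GTG-1-7 measured 54.0 and 123.1 untreated and 163.1 and 141.3 at 1 h (1.00, adjusted p = 0.228), while tRNA-His-GTG-1-8 from the same cluster on chromosome 15 measured 40.0 and 72.5 against 94.8 and 42.2 (0.33, adjusted p = 0.705), with overlapping groups. The leucine genes tRNA-Leu-CAA-1-1, tRNA-Leu-CAA-3-1 and tRNA-Leu-CAA-4-1 were at 0.88, 1.21 and 0.77 relative to mRNA (adjusted p = 0.446, 0.177 and 0.453). tRNA-Tyr-GTA-3-1 (0.12) and nm-tRNA-Tyr-GTA-chr1-142 (-0.21), a nuclear gene that resembles a mitochondrial one, had overlapping groups. Reads of near-identical tRNA copies can be split or lost in mapping, so values of single copies are uncertain.

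**Figure D2:**
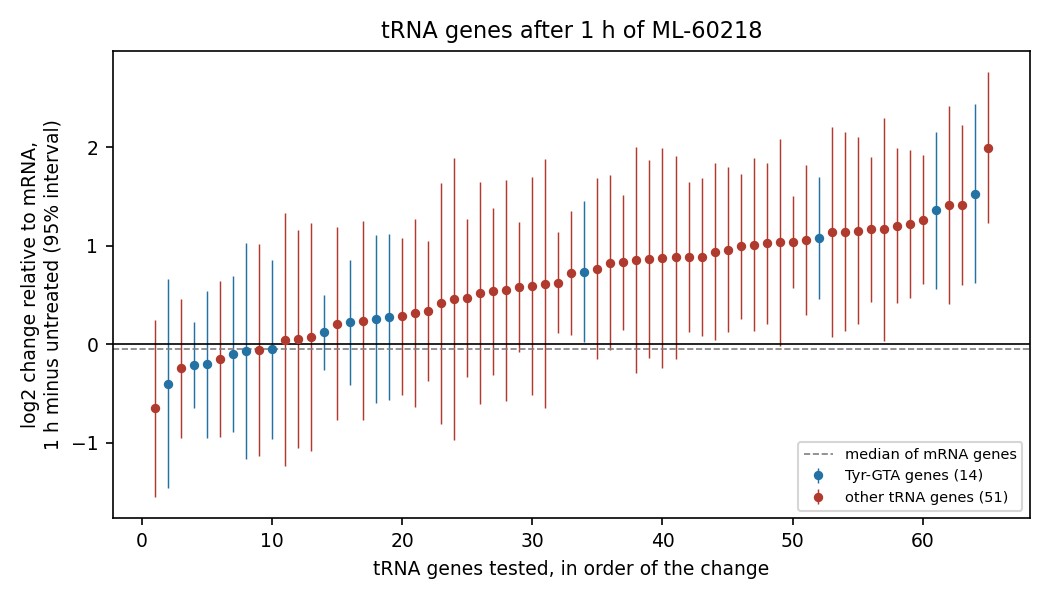
Change of each of the 65 tested tRNA genes relative to mRNA, 1 h minus untreated on the log2 scale, in order of its size, with the 95% interval of the limma fit. Tyr-GTA genes (14) are blue and all others (51) red, and the dashed line is the mRNA median of -0.05. Of the points, 55 lie above 0, and the Tyr-GTA genes spread over the whole order, from -0.40 to 1.53.

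BCYRN1, the gene region of the Pol III transcript BC200, measured 810.1 and 1930 tags per 10M in untreated cells and 813.6 and 1349 at 1 h (-0.15, SE 0.41, adjusted p = 0.90). The groups overlapped. The region as tabulated (chromosome 2, 47331059 to 47344517) spans 13459 bases and overlaps EPCAM-DT, far more than the short transcript.

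45S rRNA, the Pol I transcript, was at 100.5% and 137.6% of untreated cells with the spike-in, 119.1% ± 26.3 (SD, n = 2), a change of 0.23 (SE 0.30, adjusted p = 0.769). Relative to mRNA it was 0.16 (SE 0.17, adjusted p = 0.718). The 5 annotated 45S units, which share almost all of their sequence, ranged from 0.01 (RNA45SN1) to 0.25 (RNA45SN3), with RNA45SN5 at 0.05, RNA45SN2 at 0.11 and RNA45SN4 at 0.23, and none passed. Summed mRNA was at 97.7% and 104.5% of untreated cells there, 101.1% ± 4.80 (SD, n = 2), with a 95% interval of the log2 change from -0.32 to 0.35.

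Among 4866 mRNA genes tested, 1 passed relative to mRNA (0.0206%), and it fell. TXNIP (chromosome 1, 145992434 to 145996600) encodes a protein that binds thioredoxin and limits glucose uptake. Its RNA is short-lived, and its promoter is known to respond to sugar supply through the factors MondoA and ChREBP. It measured 207.4 and 243.2 tags per 10M in untreated cells, 43.0 and 60.5 at 1 h and 204.8 and 199.8 at 5 h. Both 1 h libraries were far below all others, and the 5 h libraries were back beside the untreated ones. TXNIP fell by 2.02 relative to mRNA at 1 h (SE 0.16, 95% interval -2.38 to -1.67, adjusted p = 5.86e-05), a 4.06-fold lower level, and edgeR also called it (adjusted p = 3.62e-05). With the spike-in it was at 20.6% and 31.9% of untreated cells. From 1 h to 5 h it rose by 2.0 (SE 0.16, adjusted p = 3.33e-05).

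The TXNIP promoter is shown because this was the only gene that passed. The 250 bases before the RefSeq start site (RefSeq, GRCh38.p14, chr1:145996580-145996829, minus strand) are given 5′ to 3′, with capitals on the paired CACGAG boxes of the gene's known carbohydrate response element, which starts 88 bases before the start site.
TXNIP: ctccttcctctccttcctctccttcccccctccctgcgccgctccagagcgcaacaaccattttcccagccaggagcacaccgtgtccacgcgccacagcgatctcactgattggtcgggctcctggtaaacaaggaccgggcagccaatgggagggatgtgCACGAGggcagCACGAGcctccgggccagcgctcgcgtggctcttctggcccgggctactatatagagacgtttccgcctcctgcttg
The letters CACGAGNNNNNCACGAG, taken from this promoter and searched on both strands, occur in 2 of 35116 RefSeq promoter windows of 250 bases (0.0057%), and CACGAG alone in 5.58%. TXNIP itself has 2 of the windows searched, so these matches need not include another gene. ARRDC4, a related arrestin-domain gene known to respond to the same factors and singled out after its values were seen, measured 19.3 and 18.3 untreated, 10.1 and 12.6 at 1 h and 15.2 and 15.9 at 5 h (-0.61, SE 0.19, adjusted p = 0.177). The 1 window of ARRDC4 held neither the pair nor CACGAG alone, but it held the E box CACGTG, which occurs in 6.34% of windows. A search for letters taken from TXNIP does not find elements that are spelled otherwise.

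More genes passed when libraries were paired by number on the spike-in scale: 35 of 4866 (0.719%), with 17 higher (0.349%) and 18 lower (0.37%). This fit was planned for the RNA classes and was applied to single genes after the data were seen. In the same limma fit without the pairing TXNIP alone of them passed. Of the other 34, 15 also passed DESeq2 on recovered tags, which used no pairing, and 11 had no adjusted p there. The split by direction depends on the scale: the same pairing relative to mRNA gave 37 genes, 7 higher and 30 lower, and tags as deposited without pairing gave 46, 2 higher and 44 lower. Of the 35, all were at unadjusted p under 0.05 relative to mRNA and 10 had an adjusted p under 0.1 there. Genes that passed it are given next, with that fit's adjusted p.

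**Figure D3:**
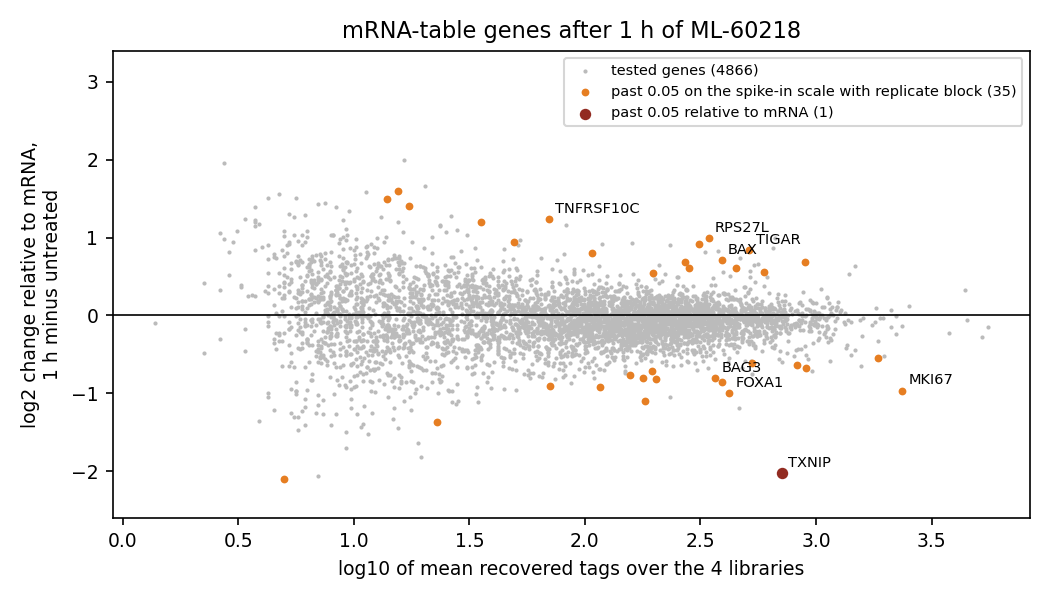
Change of 4866 mRNA-table genes relative to mRNA, 1 h minus untreated on the log2 scale (y axis), against the log10 of their mean recovered tags over the 4 libraries (x axis). Dark red marks the 1 gene past the threshold relative to mRNA, TXNIP at -2.02, and orange the 35 past it on the spike-in scale with libraries paired by number, among them MKI67 at -0.97 and RPS27L at 0.99.

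The p53 target list had 2 of its 7 tested genes among those that rose, TIGAR and BAX, against 0.349% of all mRNA genes. RPS27L, TNFRSF10C and TRIM22 are not on it and are placed here, as genes known to respond to p53, after the calls were seen. RPS27L, a ribosomal protein-like p53 target (chromosome 15, 63148249 to 63157802), measured 49.6 and 81.2 tags per 10M untreated, 146.2 and 94.7 at 1 h and 56.6 and 52.95 at 5 h. It rose by 1.06 (SE 0.19, adjusted p = 0.0137), to 293.0% and 149.7% of the paired untreated libraries. TIGAR, a fructose bisphosphatase gene, was at 310.3% and 114.6% (0.91, adjusted p = 0.0496), and BAX, a mitochondrial cell death gene, at 231.1% and 128.8% (0.78, adjusted p = 0.0435). TNFRSF10C, a decoy receptor for the death ligand TRAIL, measured 10.2 and 13.6 untreated and 40.5 and 17.2 at 1 h (1.30, adjusted p = 0.0393), and TRIM22, an interferon- and p53-responsive ubiquitin ligase gene, 46.6 and 74.6 against 131.9 and 81.9 (0.99, adjusted p = 0.0175). In all 5 genes the first treated library lay farther above its pair than the second. TNFRSF10C and TRIM22, and RAD51C, SDC1 and PTRF below, overlap other annotated genes, whose tags cannot be told apart without strand.

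Over the list of p53 targets, 7 of 24 genes were tested and none passed relative to mRNA, but 6 were at unadjusted p under 0.05 and higher, against 3.74% of all mRNA genes. The median was 0.71, beside -0.05 over all genes, and single members lay between 0.33 and 0.91. GADD45A, a growth arrest gene, measured 70.9 and 191.8 untreated and 246.1 and 158.7 at 1 h, and FDXR, a ferredoxin reductase gene, 26.3 and 65.3 against 101.1 and 52.3. Their groups overlapped, and the untreated libraries differed widely from each other. AEN, a p53-induced nuclease gene, went from 874.5 and 1158 to 1298 and 1060 (0.33, SE 0.12, adjusted p = 0.248).

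Other genes that rose on the spike-in scale had less in common. SDC1, a heparan sulfate proteoglycan of the cell surface, was at 216.2% and 132.4% of the paired untreated level (0.76, adjusted p = 0.0493). SLC30A1, the zinc exporter of the plasma membrane, measured 103.8 and 153.4 untreated, 179.7 and 167.8 at 1 h and 59.0 and 63.9 at 5 h (0.63, adjusted p = 0.0493). HSD17B7, an enzyme of cholesterol synthesis, was at 206.6% and 166.1% (adjusted p = 0.0479), RAD51C, of homologous recombination, at 214.2% and 134.7% (adjusted p = 0.0422), and MGME1, a mitochondrial exonuclease, at 171.9% and 149.0% (adjusted p = 0.0489). GPCPD1, a glycerophosphocholine phosphodiesterase gene, was at 168.3% and 152.5% (adjusted p = 0.0198) and the membrane protein gene ITM2A at 157.9% and 150.5% (adjusted p = 0.0493).

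The cell cycle list had 1 of its 18 tested genes among those that fell, MKI67, against 0.37% of all mRNA genes. GAS2L3 and SGOL2 are not on the list and are placed beside it after the calls were seen. MKI67, which encodes a coat protein of mitotic chromosomes (chromosome 10, 128096658 to 128126385), measured 649.3 and 713.6 tags per 10M untreated, 285.2 and 367.1 at 1 h and 432.9 and 303.9 at 5 h. It fell by 0.90 on the spike-in scale (SE 0.14, adjusted p = 0.00717) and was at -0.97 relative to mRNA (adjusted p = 0.0605). GAS2L3, a cytoskeletal linker of the late mitotic spindle, measured 36.01 and 32.4 untreated and 16.4 and 16.6 at 1 h (adjusted p = 0.0271), and SGOL2, a protector of centromeric cohesion, 46.2 and 43.2 against 28.7 and 20.6 (adjusted p = 0.0489). In each of these 3 genes, chosen because they passed as lower, the treated libraries lay below the untreated ones without overlap, as in 22.9% of all mRNA genes.

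The list of cell cycle and replication genes as a whole had a median of -0.17 over 18 tested genes, with 6 lower and 1 higher at unadjusted p under 0.05, against 9.37% and 3.74% of all mRNA genes. The lower ones included CENPF and CENPE, kinetochore genes, which measured 322.8 and 313.3 against 178.7 and 219.0 (-0.58, adjusted p = 0.114) and 68.6 and 70.6 against 45.5 and 46.4 (-0.49, adjusted p = 0.156). KIF11, a spindle motor, was at 125.8 and 123.6 untreated and 83.6 and 91.6 at 1 h (-0.40, adjusted p = 0.175). The replication genes CDC45 and MCM6 lay on the other side of 0: CDC45, the 1 higher at unadjusted p under 0.05, was at 0.28 (adjusted p = 0.340) and MCM6, a helicase subunit, at 0.20 (adjusted p = 0.467).

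The last 100 bases before the RefSeq start site of MKI67 (RefSeq, GRCh38.p14, chr10:128126424-128126523, minus strand) are shown because it was the most abundant gene that passed on the spike-in scale, with capitals on TTTGAA, the core of the cell cycle genes homology region that G2/M promoters are known for.
MKI67: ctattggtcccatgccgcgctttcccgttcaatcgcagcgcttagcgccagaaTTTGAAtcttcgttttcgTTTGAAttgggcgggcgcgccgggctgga
TTTGAA, searched on both strands, starts 47 and 29 bases before this start site and occurs in 13.3% of all 250-base promoter windows. KIF11 and TXNIP had it in a window of theirs and CENPF and CENPE did not.

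The heat shock list had 1 of its 6 tested genes among those that fell on the spike-in scale, and the immediate early list 2 of its 16. The share over all mRNA genes was 0.37%. BAG3, a co-chaperone gene induced by heat shock, measured 98.1 and 109.8 untreated, 51.4 and 59.2 at 1 h and 132.5 and 100.5 at 5 h (-0.73 on the spike-in scale, SE 0.13, adjusted p = 0.0175). The 6 tested genes of the heat shock list all had a negative change relative to mRNA, with a median of -0.44 and 5 lower at unadjusted p under 0.05, against 9.37% of all mRNA genes. DNAJB1, an HSP70 co-chaperone, went from 119.2 and 125.6 to 69.5 and 96.6 (-0.47, adjusted p = 0.307). HSP90AA1, the inducible HSP90 gene, went from 434.9 and 614.9 to 265.0 and 420.0 (-0.53, adjusted p = 0.324) and had 427.3 and 728.8 tags per 10M in cells with no 4-SU, a like number to untreated cells before the spike-in scaling.

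In the list of 16 tested immediate early genes the median was -0.30, with 5 lower and 1 higher at unadjusted p under 0.05, against 9.37% and 3.74% of all mRNA genes. MYC, the growth-promoting transcription factor gene, was at 65.7% and 78.7% of the paired untreated level (-0.48, SE 0.11, adjusted p = 0.0493), and KLF2, a zinc finger factor gene, at 45.4% and 79.1% (-0.73, adjusted p = 0.0496). KLF6 measured 262.8 and 271.7 untreated against 116.9 and 197.4 at 1 h and missed the threshold (adjusted p = 0.0964). FOS, the classic gene of this response, lay on the other side, at 30.4 and 18.9 untreated and 34.1 and 30.6 at 1 h (0.53 relative to mRNA, adjusted p = 0.340).

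Other genes that fell on the spike-in scale belong to no list used here. FOXA1, a pioneer transcription factor gene, was at 42.6% and 64.4% (-0.93, adjusted p = 0.00717), the homeobox gene SIX4 at 49.4% and 71.7% (-0.74, adjusted p = 0.0393) and the homeobox gene NKX2-3 at 49.9% and 59.8% (-0.84, adjusted p = 0.0454). PTRF, which encodes the caveolar coat protein cavin, was at 44.5% and 75.2% (adjusted p = 0.0209), PCDH1, a protocadherin gene, at 60.6% and 66.4% (adjusted p = 0.0422), and PJA1, a ubiquitin ligase gene, at 33.7% and 69.3% (adjusted p = 0.0175).

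**Figure D4:**
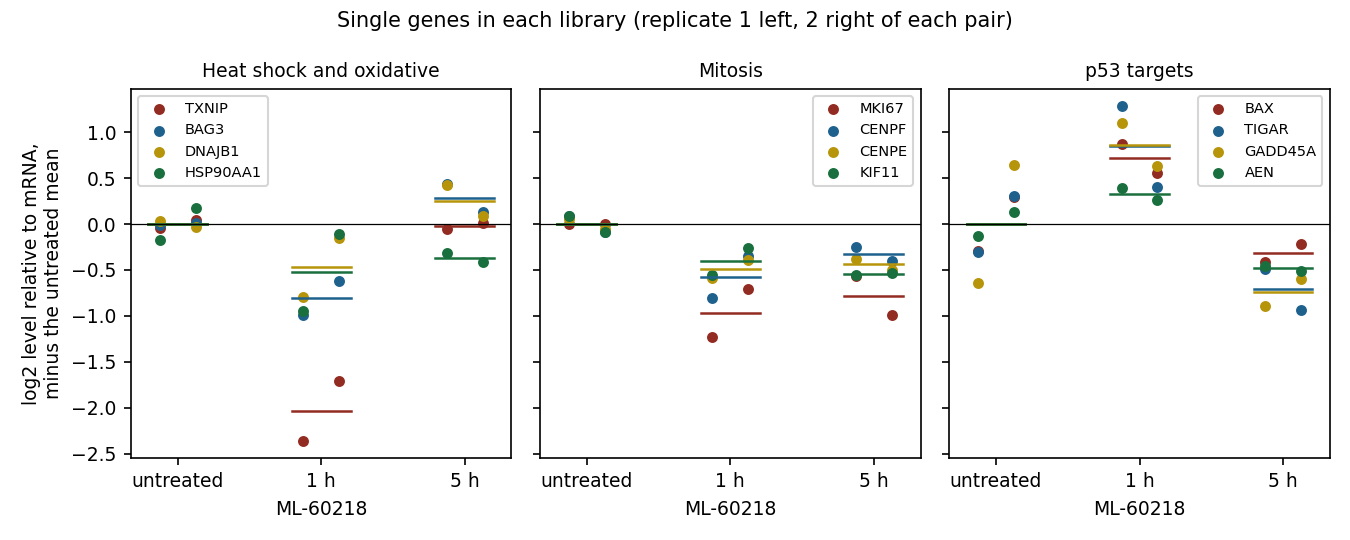
Level of 12 genes in each untreated, 1 h and 5 h library relative to mRNA, as log2 minus the gene's untreated mean (y axis), with the mean of each pair as a bar. TXNIP lies about -2 at 1 h and near 0 at 5 h, the 4 mitosis genes are below 0 at both times, and the 4 p53 targets are above 0 at 1 h and below 0 at 5 h.

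No tested gene on the lists of Pol III factors and of tRNA processing passed, and most genes of these lists were not in the mRNA table. Of 33 listed genes of Pol III subunits and factors, 7 were in the mRNA table and were tested. None of the 7 passed on either scale and their median was -0.05. POLR3E, a Pol III subunit gene, measured 224.1 and 258.2 untreated and 302.5 and 266.5 at 1 h (0.34 relative to mRNA, SE 0.10, adjusted p = 0.166, and 0.41 on the spike-in scale, adjusted p = 0.0830). It was the only member of this list at unadjusted p under 0.05. SSB, which encodes the La protein that binds the ends of Pol III transcripts, was at 0.25 (adjusted p = 0.584), the TFIIIC genes GTF3C3 and GTF3C4 at 0.18 and -0.18 (adjusted p = 0.617 and 0.571), the TFIIIB gene BDP1 at -0.05, POLR3A, the largest subunit, at -0.11 and LARP4, an RNA-binding factor, at -0.06.

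Of 45 listed genes of tRNA processing and modification, 11 were in the mRNA table and were tested. Among these 11, 3 were at unadjusted p under 0.05, all higher, against 3.74% of all mRNA genes, and none passed. TRDMT1, a tRNA methyltransferase gene, measured 13.6 and 13.3 untreated and 19.8 and 22.3 at 1 h (0.73, SE 0.21, adjusted p = 0.166). WDR4, a cofactor of another tRNA methyltransferase, was at 0.26 and POP4, a subunit of RNase P, which trims tRNA precursors, at 0.32, and the list's median was 0.04. The 7 tested aminoacyl-tRNA synthetase genes, of 41 listed, lay between -0.26 (GARS) and 0.27 (DARS). The 14 tested ribosomal protein genes, of 79 listed, lay between -0.27 (RPL26) and 0.18 (RPL37A). The 8 tested translation factor genes, of 28 listed, lay between -0.16 (EIF2S3) and 0.17 (EIF2S2). Among these 3 lists RPL14 alone was at unadjusted p under 0.05 (-0.24, adjusted p = 0.289). The 5 tested Pol I genes, from FBL at -0.20 to UTP20 at 0.05, had a median of 0.01.

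The integrated stress response list and the oxidative and metal stress list held members on both sides of 0. In the integrated stress response list, 13 genes were tested, 2 were higher and 2 lower at unadjusted p under 0.05 (3.74% and 9.37% of all mRNA genes), and the median was -0.15. NUPR1, a stress-induced chromatin protein gene, was at 0.87 and 2.67 untreated, 14.8 and 3.44 at 1 h (2.0, SE 0.59, adjusted p = 0.171), and this value rested on the first treated library. PPP1R15A, a phosphatase subunit that reverses the response, was at -0.52 (adjusted p = 0.171), SESN2, also a p53 target, at 0.54 (adjusted p = 0.275), STC2 at -0.34, and ATF3, TRIB3, CHAC1 and ASNS at 0.24, -0.27, -0.20 and -0.15. Beside TXNIP and SLC30A1, the oxidative and metal stress list (8 tested, median -0.11) held the heme oxygenase gene HMOX1 at 0.03, GCLM, of glutathione synthesis, at -0.19 and TALDO1, of the pentose phosphate pathway, at -0.22.

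Aryl hydrocarbon receptor targets, CYP1A1 (0.36) and CYP1B1 (0.13), were between 1.53 and 3.82 tags per 10M in all 4 libraries. Among 7 tested genes of the innate response to RNA the median was -0.21. IFIT1, an interferon-induced gene, was at 5.42 and 6.46 untreated and 1.69 and 4.01 at 1 h (-0.94, adjusted p = 0.249), NFKBIA at -0.21, IFIH1 at -0.30 and ISG20 at 0.22. Beside HSD17B7, the sterol synthesis genes MSMO1, MVK and SC5D were at 0.29, -0.17 and -0.14. Pol II elongation genes (7 tested) had a median of -0.09, with CTR9 at -0.37, and the replication-dependent histone gene HIST1H4H was at -0.28. The blood lineage genes RUNX1 and ITGA2B were at 0.05 and 0.30.

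**Figure D5:**
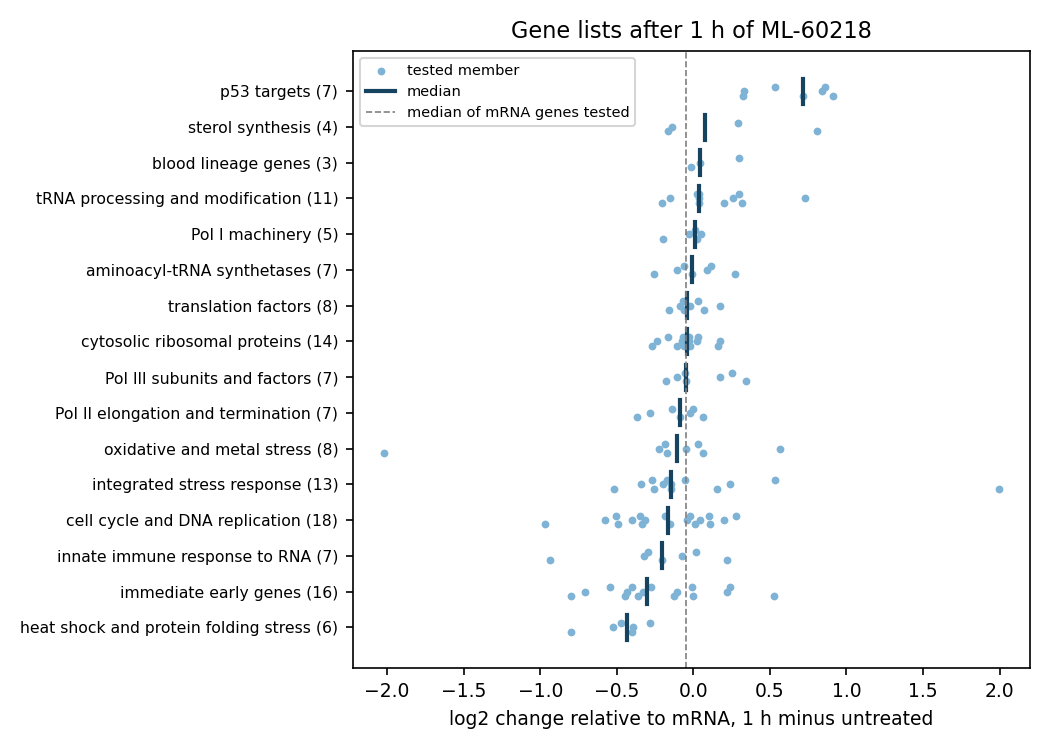
Change relative to mRNA at 1 h, on the log2 scale, of each tested member (points) and the median (bar) of the gene lists with at least 3 tested members, with the number tested in brackets. The dashed line is the median of all mRNA genes, -0.05. The p53 targets lie highest, with a median of 0.71, and the heat shock genes lowest, with a median of -0.44.

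Median changes differed little between genes of different span. The shortest genes (under 10 kb, 1064 tested) had a median of -0.11. Those spanning 10 to 30 kb (1612) were at -0.06, those of 30 to 100 kb (1580) at -0.03 and those of 100 to 200 kb (427) at -0.02, while the median of the 183 longest was -0.0031. Lower values outnumbered higher ones at unadjusted p under 0.05 in each class, by 134 to 38 among the shortest genes.

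In most genes with a small p the first treated library lay farther from the untreated ones. Of the 638 mRNA genes at unadjusted p under 0.05 relative to mRNA (13.1%), 182 were higher and 456 lower, and in 461 the first ML-60218 1 h library lay farther out than the second. Replicates at 1 h differed more from each other (root mean square SD of log2 values 0.38) than in untreated cells (0.26) or at 5 h (0.27). With the second 1 h library left out, 269 mRNA genes passed relative to mRNA, 55 higher and 214 lower, while leaving out any other of the 4 libraries left 1. In these fits the lone library of a group is assumed to vary like the other groups. DESeq2 on recovered tags called 24 genes (0.493%), 12 in each direction (0.247%).

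From 1 h to 5 h, with the untreated cells out of the contrast, 1115 of 4866 mRNA genes passed relative to mRNA (22.9%), 704 higher at 5 h (14.5%) and 411 lower (8.45%). All 7 tested p53 targets were lower at 5 h than at 1 h, with a median of -1.33. TIGAR, at 66.0 and 45.1 tags per 10M at 5 h, fell by 1.55 from 1 h (SE 0.27, adjusted p = 0.00230), and BAX by 1.03 (adjusted p = 0.00255). Of the 17 genes that rose at 1 h on the spike-in scale, 13 were lower at 5 h than at 1 h, and of the 18 that fell, 16 were higher. Both sets were chosen for extreme 1 h values, which the contrast shares.

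Of the 18, MKI67 (0.19, adjusted p = 0.451) and ZNF296 (0.26, adjusted p = 0.338) missed the threshold for a difference between the times, as did GPCPD1 (-0.20, adjusted p = 0.310) among the higher genes, and the differences of CENPF, CENPE and KIF11 missed the threshold too. Heat shock genes passed as higher at 5 h than at 1 h in 4 of 6 cases and immediate early genes in 7 of 16, against 14.5% of all mRNA genes. CHAC1, a stress-induced glutathione-degrading enzyme gene, which stood at 25.5 and 43.3 at 1 h, reached 165.1 and 106.2 (2.0, adjusted p = 0.000996). Of the Pol I genes, 3 of 5 passed as lower at 5 h, against 8.45% of all mRNA genes, among them DDX21, a helicase of ribosome synthesis (-0.79, adjusted p = 0.000370).

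Of the Pol III products, 5S rRNA measured 82.5 and 179.7 tags per 10M at 5 h, a difference from 1 h of -0.73 relative to mRNA (SE 0.33, adjusted p = 0.129) and -0.90 on the spike-in scale (SE 0.32, adjusted p = 0.0415). Its 5 h libraries differed from each other by more than the untreated ones did. The tRNA class differed by 0.08 (SE 0.22, adjusted p = 0.823). Of 65 tRNA genes, 3 passed (4.62%), 1 higher (1.54%) and 2 lower (3.08%): tRNA-Asp-GTC-1-1 was higher at 5 h, at 3.38 and 4.31 against 0.84 and 0.76 (1.78, adjusted p = 0.00562), and tRNA-Tyr-GTA-8-1 and tRNA-Tyr-GTA-4-1 were lower, tRNA-Tyr-GTA-8-1 at 5.02 and 2.43 against 10.5 and 11.8 (-1.53, adjusted p = 0.00708).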

How the data were processed

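The deposited tables held 9944 mRNA-table gene bodies, 5 45S units and 631 tRNA genes with a 5S sum. Per the file headers, each signal column gives tags that HOMER assigned on hg38 without a strand option, scaled to 10000000 per library, although headed as raw counts, and each ratio column sets the authors' spike-in normalised value against the like-numbered untreated library. HOMER, STAR (2.7.7a), Trim Galore (0.6.5) and FastQC (0.11.9) are the tools, and GRCh38 and R64 the builds, named in the submitters' processing notes. Columns of means (24) were not used.

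All 91771 low mRNA values and 3242 low tRNA values checked were multiples of 0.5 tags within 0.005 of the deposited unit. Because the deposited values are scaled, limma (3.58.1, trend method, R 4.3.3) tested log2(value + 0.5) over 10 labelled libraries without the DRB groups. Count tests on recovered tags with edgeR (4.0.16) and DESeq2 (1.42.0) were alternatives. Rows passed edgeR's filterByExpr with a minimum of 10 tags, which treated libraries alone could meet. Fold changes of low genes depend on the 0.5. Of the mRNA rows, 61 repeat a symbol. On simulated tags of this comparison (4937 rows), limma called 72.2% of genes changed 2-fold, 91.8% of those changed 4-fold and 0.31% of unchanged ones. The simulation gave each row the same spread in all groups. In the data the replicates at 1 h differed more (root mean square SD 0.38) than those in untreated cells (0.26), so these shares may be too favourable.

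The members, gene lists, tests and naming rule were chosen with earlier results of these data known. The rule named up to 12 genes in each direction that passed, with at least 50 mean tags and groups that did not overlap, up to 4 members of each list by p, the 10 tRNA genes with most untreated tags, and the selenocysteine tRNA. Genes called only on the spike-in scale, and other list members, were named after their values were seen. Some items are not reported here.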

Additional observations from a re-analysis of the deposited data

Results flagged for a closer look

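The results below were singled out because the change from untreated cells differed between 1 h and 5 h of ML-60218, by a test of 5 h minus 1 h in the same limma fit relative to mRNA (adjusted p under 0.05), or for 5S rRNA in the spike-in fit. The untreated libraries cancel in this difference. Genes chosen for extreme 1 h values tend to show such a difference.

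Among genes with a positive 1 h value, whether or not it passed, TNFRSF10C changed by -2.84 from 1 h to 5 h, GADD45A by -1.60, TIGAR by -1.55, SLC30A1 by -1.47, TRIM22 by -1.43, RAD51C by -1.30, HSD17B7 by -1.13, RPS27L by -1.07 and BAX by -1.03. SDC1 and MGME1 (-0.82 and -0.81), AEN (-0.81), ITM2A (-0.73), SESN2 (-0.67), TRDMT1 (-0.62) and NUPR1 (-1.88, with 1 library high at 1 h) lay in the same direction. GADD45A, AEN, SESN2, TRDMT1 and NUPR1 did not pass at 1 h on either scale.

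Among genes with a negative 1 h value, whether or not it passed, TXNIP changed by 2.0, PCDH1 by 1.73, NKX2-3 by 1.67, IFIT1 by 1.53, KLF2 by 1.45, PTRF by 1.34, BAG3 and PJA1 by 1.08, FOXA1 by 1.02 and SIX4 by 0.98. Smaller differences were those of KLF6 (0.76), GAS2L3 (0.74), DNAJB1 (0.72), SERPINH1 (0.64), PPP1R15A (0.62), MYC (0.60), SGOL2 (0.58) and STC2 (0.51). IFIT1, KLF6, DNAJB1, SERPINH1, PPP1R15A and STC2 did not pass at 1 h on either scale.

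Other genes that did not pass at 1 h and were lower at 5 h were ISG20 (-1.91), an RNA exonuclease gene, MSMO1 (-1.09), of sterol synthesis, DDX21 (-0.79), SSB (-0.61), TTF1 (-0.56), UTP20 (-0.55) and WDR4 (-0.43). Of the tRNA genes, tRNA-Asp-GTC-1-1 changed by 1.78, tRNA-Tyr-GTA-8-1 by -1.53 and tRNA-Tyr-GTA-4-1 by -1.08. 5S rRNA changed by -0.90 on the spike-in scale, where the fit pairs libraries by number (adjusted p = 0.0415), and its difference relative to mRNA did not pass (adjusted p = 0.129).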

How the results depend on the processing

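With 2 libraries a group, a different one of them or a different test changes the counts. The number of mRNA genes called at 1 h was 1, and also 1 with edgeR, spike-in factors alone, median-of-ratios factors, a pseudocount of 2, no filter, a minimum of 30 tags or one variance weight per group. It was 0 with all 14 labelled libraries, 3 with only the 4 libraries compared, 24 with DESeq2, 46 with tags per 10M as deposited (2 higher, 44 lower), 37 with the replicate block (7 higher, 30 lower) and 35 with the block and the spike-in factors. With edgeR it was 4 with the replicate block and 20 with only the 4 libraries, alternatives chosen after seeing the data. Leaving out 1 library gave 1 to 269 with limma and 1 to 56 with edgeR, the highest in each case without ML-60218 1 h replicate 2. For tRNA genes the count was 0, and 6 with only the 4 libraries (11 with edgeR), 1 with DESeq2, spike-in factors or tags as deposited, 3 with the replicate block and 7 with the block and the spike-in. Leaving out 1 library gave 0 to 2 with limma and 0 to 1 with edgeR. Labels do not say that the replicate numbers mark a batch, and same-numbered untreated and 1 h libraries deviated together with r = 0.214 over 3178 genes (0.112 to 0.477 over 10 pairs of groups). With only 2 numbers this does not establish the pairing, on which calls made only under the block rest.

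5S rRNA relative to mRNA passed with only the 4 libraries (1.08, adjusted p = 0.0228) and on the spike-in scale likewise (1.16, adjusted p = 0.00603), and its value ran from 0.72 to 1.44 and from 0.78 to 1.54 when 1 library or number was left out. The tRNA class ran from 0.26 to 0.58 relative to mRNA and from 0.42 to 0.58 with the spike-in, and 45S rRNA from 0.05 to 0.26 and from 0.01 to 0.46. Summed mRNA on the spike-in scale ran from -0.034 to 0.063, with the sign turned without number 2. The 1115 genes of 5 h against 1 h became 10 with all 14 libraries, 662 with DESeq2, 472 with spike-in factors and 697 with no filter, and 433 to 1373 with 1 library left out. The 3 tRNA genes became 0 with 14 libraries, 1 with DESeq2, 7 with no filter and 5 with the replicate block, and 1 to 4 with 1 library left out. 5S rRNA at 5 h against 1 h ran from -1.34 to -0.13 with 1 library left out and passed without ML-60218 5 h replicate 2 (adjusted p = 0.0271). The tRNA class there turned sign with spike-in factors (-0.085) and ran from -0.060 to 0.22. The causes were not tested. Alternatives for 25 single genes were counted once per gene and alternative. Of these, 335 kept direction and side of the threshold, 64 passed where the fit relative to mRNA did not, 1 no longer passed and none changed sign. The genes were named with their 1 h values known, so a kept sign carries little weight.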
